A study of Mus musculus with 20 samples.

Results

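Small nucleolar RNAs (snoRNAs) were examined in the adult mouse hippocampus after gestational exposure to nano-sized particulate matter (nPM). The members were the 120 genes selected on 2 conditions: the class snoRNA in the deposited gene map, and a mean level of 0.5 CPM or more over the 20 samples. CPM is a gene's count scaled to the total count of its sample. They were 120 of 1508 snoRNA genes and of 48709 genes in all. Of the other snoRNA genes, 568 had at least 1 count in some sample and 820 had none in any sample. Levels chose the members, so their levels are given as a description, with no test. All 120 passed the filter on low counts used for the fits below.

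Hippocampi of the right hemisphere came from C57BL/6J offspring whose mothers had breathed re-aerosolized urban nPM or filtered air in pregnancy, from gestational day 2, 5 h a day and 3 days a week. The nPM concentration was 300 per cubic metre, in mg in the labels and in µg in the study's methods. There were 4 groups of 5 samples each, namely nPM and control samples of either sex, from 5 litters per exposure, and which samples shared a litter was not used here. Females were 17.7 to 18.3 weeks old and males 18.6 to 19.1 weeks, so sex and age cannot be told apart. The study's methods describe injections of EdU, a label of dividing cells, in males. They also say that all animals received it, so whether the females did is not clear. If only males did, EdU cannot be told apart from sex and age either. Where samples shared a litter, p-values measure the spread between samples and not between litters.

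snoRNAs are short RNAs of the nucleolus that guide chemical changes of other RNAs by base pairing. C/D box snoRNAs carry the C box and D box motifs, bind fibrillarin and guide 2′-O-methylation, mostly of ribosomal RNA. H/ACA box snoRNAs are longer, end in an ACA motif, bind dyskerin and guide conversion of uridine to pseudouridine. In mammals most are cut from introns of a host gene after splicing. A pair of imprinted regions, Snhg14 on chromosome 7 and the Meg3, Rian and Mirg region on chromosome 12, hold arrays of C/D box snoRNAs that are known for expression in brain and that mostly lack a known ribosomal RNA target.

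The sequences of the members with the highest levels are shown first, since they set most of the signal. They were taken from the GENCODE M21 transcripts of GRCm38, the build of the counts, in which all 120 members had the same position. Capitals mark the ACA at the 3′ end of H/ACA box RNAs, or the C box letters TGATGA and the D box letters CTGA. Snora73b (chr4:132352322-132352526, minus strand) is a form of U17, an H/ACA box RNA of ribosomal RNA processing, and Gm26448 (chr9:120129351-120129553, plus strand) was 87.8% identical to it. Gm25776 (chr12:91573430-91573572, minus strand) and Gm25848 (chr16:32243712-32243855, minus strand) were 89.6% identical to each other. Snord17 lay at chr2:144265979-144266216, minus strand, and Gm24339 at chr9:15326464-15326539, minus strand.
Snora73b: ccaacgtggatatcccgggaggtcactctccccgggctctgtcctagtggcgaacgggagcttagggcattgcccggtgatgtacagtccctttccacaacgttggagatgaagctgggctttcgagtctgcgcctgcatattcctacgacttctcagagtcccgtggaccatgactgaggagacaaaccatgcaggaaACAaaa
Gm26448: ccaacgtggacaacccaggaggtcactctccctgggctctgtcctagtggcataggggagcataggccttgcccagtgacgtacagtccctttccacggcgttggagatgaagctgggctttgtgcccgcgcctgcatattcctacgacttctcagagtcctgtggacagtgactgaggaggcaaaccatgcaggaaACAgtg
Gm25776: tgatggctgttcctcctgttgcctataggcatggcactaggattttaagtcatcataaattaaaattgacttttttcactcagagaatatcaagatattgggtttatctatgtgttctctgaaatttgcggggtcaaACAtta
Gm25848: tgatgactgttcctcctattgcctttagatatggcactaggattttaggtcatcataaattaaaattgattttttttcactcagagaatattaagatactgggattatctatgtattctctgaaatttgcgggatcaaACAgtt
Snord17: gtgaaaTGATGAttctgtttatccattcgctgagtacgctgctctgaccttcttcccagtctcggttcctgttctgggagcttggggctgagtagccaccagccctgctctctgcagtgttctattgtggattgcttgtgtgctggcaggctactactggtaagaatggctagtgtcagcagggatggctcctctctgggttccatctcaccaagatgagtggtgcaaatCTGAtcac
Gm24339: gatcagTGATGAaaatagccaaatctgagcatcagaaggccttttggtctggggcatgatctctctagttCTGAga

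The imprinted arrays held shorter RNAs. The next lines show copies of the 79-base family inside Snhg14, with the longest stretch that is perfectly complementary to a transcript of Htr2c, the serotonin 2C receptor gene, in capitals. This family is known as Snord115 or MBII-52, although the deposited map gives its copies Gm symbols only. Gm24966 (chr7:59344073-59344151, minus strand) had the highest level of the copies, and Gm24027 (chr7:59460677-59460755, minus strand) has a sequence that 33 copies share letter for letter. Gm25175 (chr7:59470034-59470112, minus strand) and Gm24495 (chr7:59507198-59507276, minus strand) have shorter complementary stretches.
Gm24966: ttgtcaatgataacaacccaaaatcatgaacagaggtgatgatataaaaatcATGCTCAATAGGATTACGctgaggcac
Gm24027: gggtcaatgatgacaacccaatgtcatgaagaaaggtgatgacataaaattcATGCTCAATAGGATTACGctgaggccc
Gm25175: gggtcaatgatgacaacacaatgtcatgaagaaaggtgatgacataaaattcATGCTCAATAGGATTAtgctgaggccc
Gm24495: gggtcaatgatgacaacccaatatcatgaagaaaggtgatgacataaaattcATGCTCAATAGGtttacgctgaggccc

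Other members of the arrays are shown with the box letters in capitals. Snord116l12 (chr7:59904755-59904848, minus strand) belongs to the Snord116 family, whose loss is linked to Prader-Willi syndrome, and Gm22373 (chr7:59923034-59923122, minus strand) gave the smallest p between the sexes below. DQ267102 (chr12:109656345-109656416, plus strand) lies in Rian.
Snord116l12: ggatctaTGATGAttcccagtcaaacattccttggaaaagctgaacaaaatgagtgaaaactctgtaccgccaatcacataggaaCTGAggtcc
Gm22373: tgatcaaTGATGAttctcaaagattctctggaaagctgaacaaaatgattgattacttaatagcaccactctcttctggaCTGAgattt
DQ267102: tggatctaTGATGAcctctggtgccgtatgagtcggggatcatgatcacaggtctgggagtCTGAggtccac

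The box letters were searched on the transcribed strand of all 1508 genes: TGATGA in the first 20 bases, CTGA in the last 20 and ACANNN at the 3′ end. C and D letters occurred together in 49 members, 40.8%, against 18.8% of the 1388 snoRNA genes under 0.5 CPM and 20.6% of all 1508. The ACA end occurred in 44 members, 36.7%, against 16.7% of the genes under 0.5 CPM and 18.3% of all. Outside Snhg14, 40 of the 54 members of 120 bases or more had the ACA end, and 16 of the 27 shorter ones had the C and D letters. A match to these letters is a description of the sequence, and a copy without them may carry another spelling of the box.

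The detected snoRNAs fell into 4 sets by position and length, and 1 of them held most of the signal. The 54 members of 120 bases or more outside the imprinted arrays summed to 736 CPM, 89.1% of the summed mean level of all members. The 39 members inside Snhg14 summed to 44.7 CPM, 5.41%, the 17 shorter members elsewhere to 29.2 CPM, 3.54%, and the 10 members between the start of Rian and the end of Mirg to 16.2 CPM, 1.97%. The share of annotated genes that were members was 18.8% of 208 inside Snhg14, 43.5% of 23 in the Rian to Mirg span, 5.88% of 919 long genes elsewhere and 4.75% of 358 short genes elsewhere. Of the members, 105 lay within the span of another gene on the same strand. Only 13 members had Snora symbols, 13 Snord symbols and 1 a Scarna symbol, and 91 had Gm symbols.

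**Figure D1:**
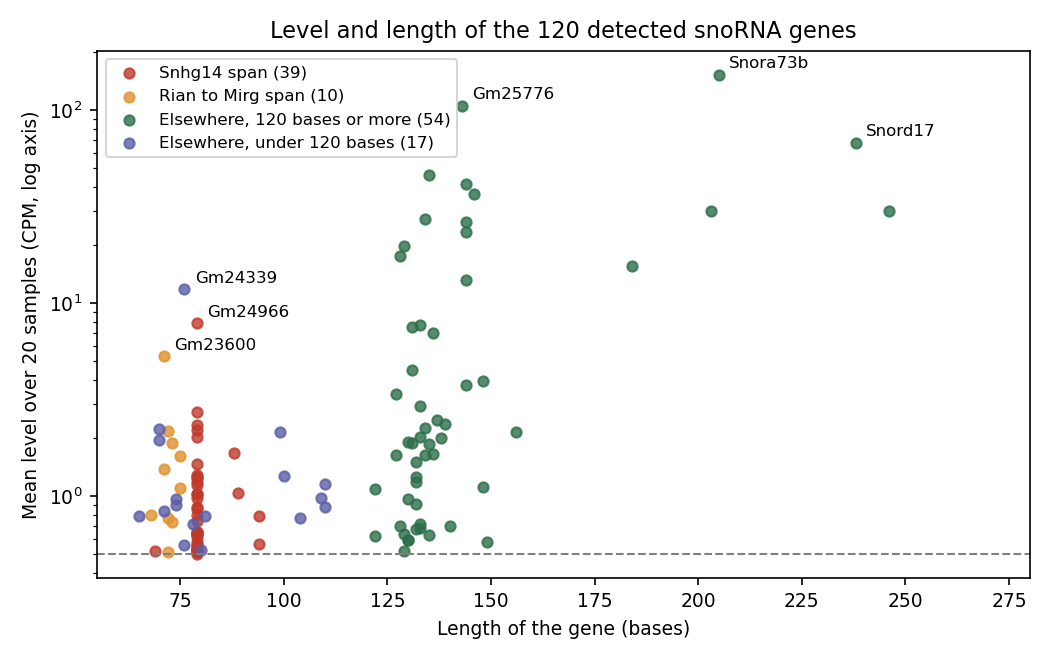
Mean level over the 20 samples in CPM (log axis) against gene length in bases for the 120 members, coloured by position. The dashed line is the 0.5 CPM of the rule. Levels over 15 CPM were seen only in members of 120 bases or more outside the arrays, and Snora73b was highest at 153 CPM.

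The 10 most abundant members, all long, held 68.6% of the summed level, and 3 held 39.6%. Snora73b, in the span of Rcc1 and Snhg3, had a mean of 153 CPM, or 748 CPM per kb of its length. It overlaps Gm17300 on the opposite strand, whose reads could not be separated here. Gm25776, within Gtf2a1, had 106 CPM and 741 CPM per kb, so these led on both scales. Snord17, within the sorting nexin gene Snx5, had 68.1 CPM and 286 CPM per kb. Gm22422 (Trmt10c), Gm25117 (Nap1l1) and Gm24336 (Cwf19l1) had 343, 288 and 254 CPM per kb. Gm24119 (Slc25a3), Gm26448 (Rpsa), Gm26397 (Tomm20) and Gm25291 (Sec24a) had 123, 148, 204 and 184 CPM per kb. Of the short members, Gm24339, within Cep295, stood highest per length at 155 CPM per kb, and Gm24966 followed with 99.7 CPM per kb. Fragments of RNAs this short are recovered unevenly in a library made for longer RNA, so levels of members of different length are not copy numbers.

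Close relatives differed widely in level. Snora73a was 96.6% identical to Snora73b and had 0.0625 CPM, against 153 CPM. Gm25776 and Gm25848 had 106 and 13.1 CPM at nearly the same length. Gm25117, Gm25291 and Gm24727, of 144 bases each, had 41.5, 26.5 and 3.74 CPM, with 92.4% identity between the first pair and 93.8% between Gm25291 and Gm24727. How reads that align to several places were counted is not given in the sources used here, so the split between such relatives is uncertain.

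At the edge of the rule, Gm24310, Gm25854 and Gm22253 had means of 0.514, 0.509 and 0.5002 CPM, and Gm24417, Snord49a and Gm22996 just missed it at 0.492, 0.492 and 0.474 CPM. Depth limits these values: 75 members had a median below 50 counts per sample, 6 had a median of 1000 counts or more, and 2 members had a sample with no count. Total counts were 19092067 to 38663408 per sample. The floor that a count of 0 allows, 3 counts, corresponds to 0.0776 to 0.157 CPM, and this covers counting error only.

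The 79-base array inside Snhg14 was detected unevenly along its length. The annotation holds 130 copies over 275 kb, with 52 distinct sequences, and 34 copies were members. Gm24966, at the far 3′ end of the array, had 7.88 CPM, and the other member copies had 0.5002 to 2.74 CPM. In the 40 kb at that end, 10 of 19 copies were members. Of the 37 copies with a sequence of their own, 21 were members, and the median of the 37 was 0.517 CPM. Of the 93 copies that share their sequence, 13 were members, with a median of 0.120 CPM over the 93, and 17 were listed at 0. Of the 56 copies with either of the commonest sequences, 5 were members and 12 were listed at 0. How the counting rule for reads with several alignments acted on these copies was not tested.

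**Figure D2:**
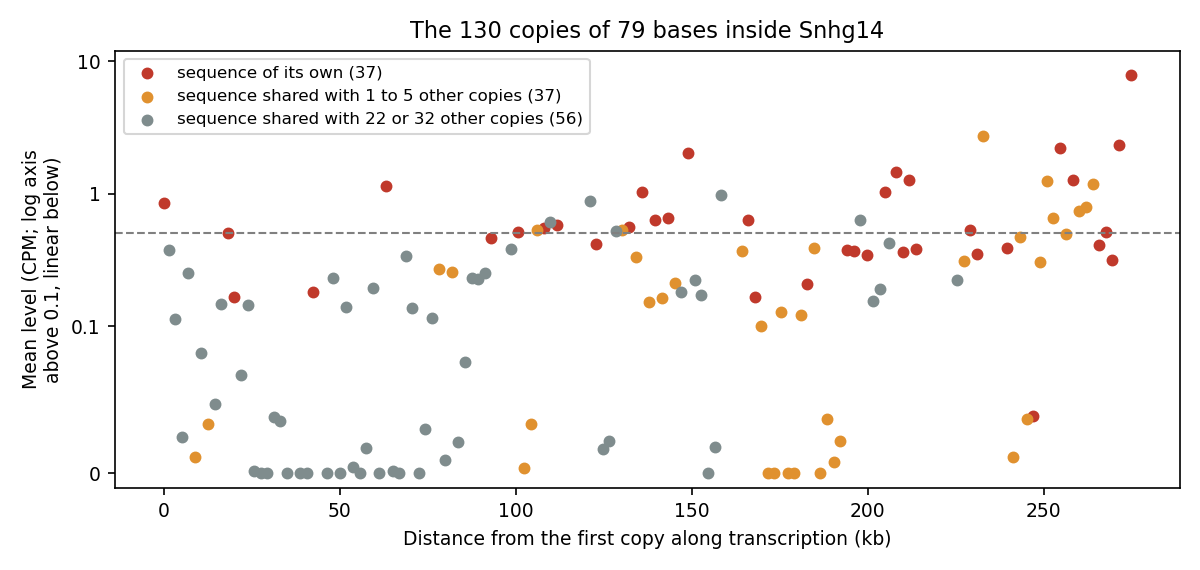
Mean level in CPM (logarithmic above 0.1, linear below) of the 130 copies of 79 bases inside Snhg14 against distance in kb from the first copy along transcription, coloured by how many copies share the sequence. The dashed line is the 0.5 CPM of the rule. The highest point, Gm24966 with 7.88 CPM, is at the 3′ end, and the 17 copies at 0 all share their sequence with others.

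The stretch complementary to Htr2c was present in members and in copies under the rule alike. It was searched in 7 Htr2c transcripts. A perfect run of 18 bases or more was found in 24 of the 34 member copies, 70.6%, and in 79 of the 96 others, 82.3%. Among members the run was as short as 11 bases and as long as 19. Gm24966 and Gm24027 above carry 18 bases, Gm25175 16 and Gm24495 12. These are matches of letters, and no pairing was measured.

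The summed level of the members in females was 935 ± 114 CPM with filtered air and 843 ± 304 with nPM, and in males 730 ± 246 and 796 ± 128 (SD, n = 5 each). The control females had 1133, 838, 900, 898 and 905 CPM, and the nPM females 1063, 959, 674, 394 and 1123. The control males had 303, 797, 802, 813 and 937 CPM, and the nPM males 780, 1001, 677, 820 and 704. All groups overlapped, and control male 1 and nPM female 4 had the lowest values of all 20 samples. Without them the nPM females had 955 ± 199 CPM and the control males 837 ± 67.2 (SD, n = 4), which turned the direction of nPM against control in both sexes. Members made up 0.0303% to 0.113% of a sample's counts.

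Those 2 libraries were low in the sums of both sets outside the arrays, and not in those of the arrays. In control male 1, the 54 long members outside the arrays summed to 229 CPM, against 720 to 868 CPM in the other 4 control males, and the Snhg14 members to 38.6 CPM, against 24.1 to 38.8. In nPM female 4 the long members summed to 288 CPM, against 588 to 1000 CPM in the other 4 nPM females, and the Snhg14 members to 62.1 CPM, against 40.9 to 62.0. The 17 short members outside the arrays summed to 15.1 CPM in control male 1 (25.4 to 27.3 in the other control males) and to 19.5 CPM in nPM female 4 (27.7 to 38.0 in the other nPM females). Per member, the median difference from the group's other 4 libraries was −1.64 and −1.45 on the log2 scale for the 54 long members. For the 60 members of 65 to 94 bases it was 0.24 and 0.14, with exceptions such as Snord104, of 70 bases, at −2.18 and −1.57. For the 6 members of 99 to 110 bases it was −2.88 and −1.93. Some other classes of short RNA were low in them too: small nuclear RNA genes summed to 1138 CPM in control male 1 (other control males 2189 to 2911) and scaRNA genes, guides of the Cajal body, to 437 CPM (786 to 896). In nPM female 4 the values were 2090 CPM (other nPM females 2500 to 4253) and 429 CPM (698 to 964). In control male 1 the microRNA genes (463 CPM), Rmrp (1004 CPM) and Rpph1 (3411 CPM), the RNAs of RNase MRP and RNase P, lay within the range of the other control males, and in nPM female 4 they lay below the other nPM females. What made these libraries differ was not tested, and the summed levels and the counts of calls are given with and without them.

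**Figure D3:**
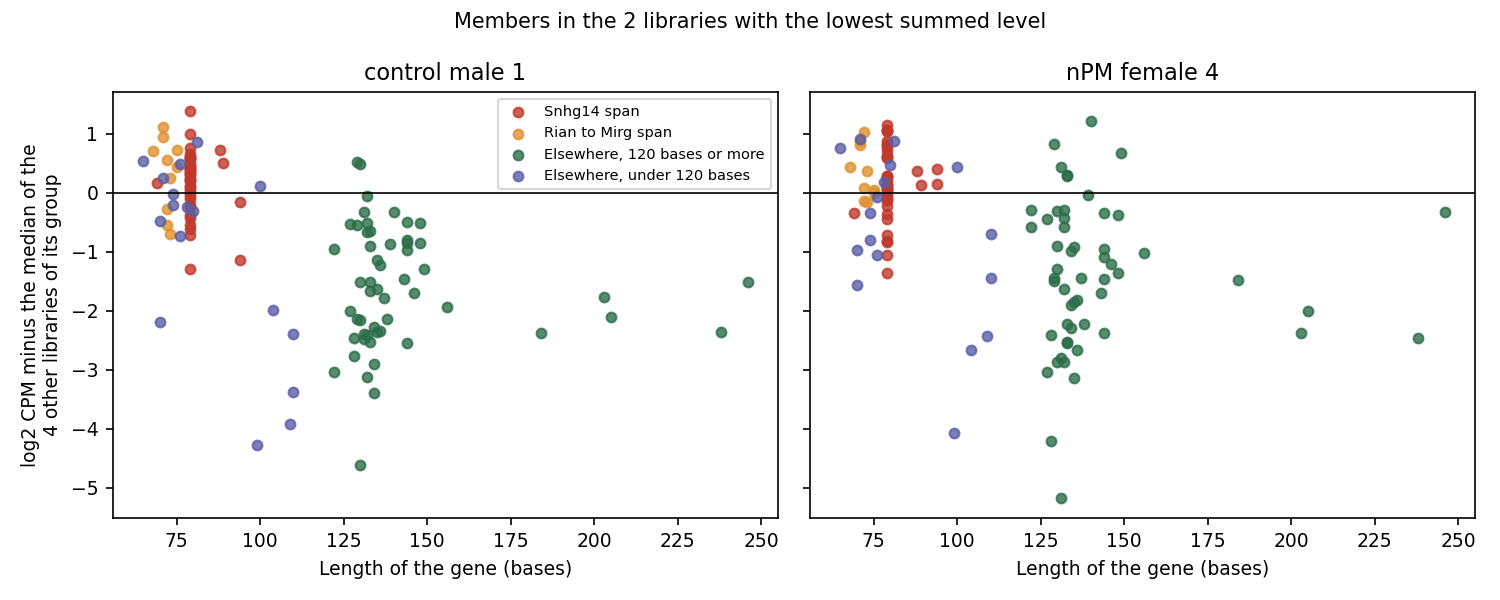
Difference of log2 CPM between 1 library (left, control male 1; right, nPM female 4) and the median of the other 4 libraries of its group, for each of the 120 members, against gene length in bases. Most members of 120 bases or more lie below 0 (52 of 54 and 48 of 54), and the members of 65 to 94 bases scatter around 0 (37 of 60 and 38 of 60 above it).

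**Figure D4:**
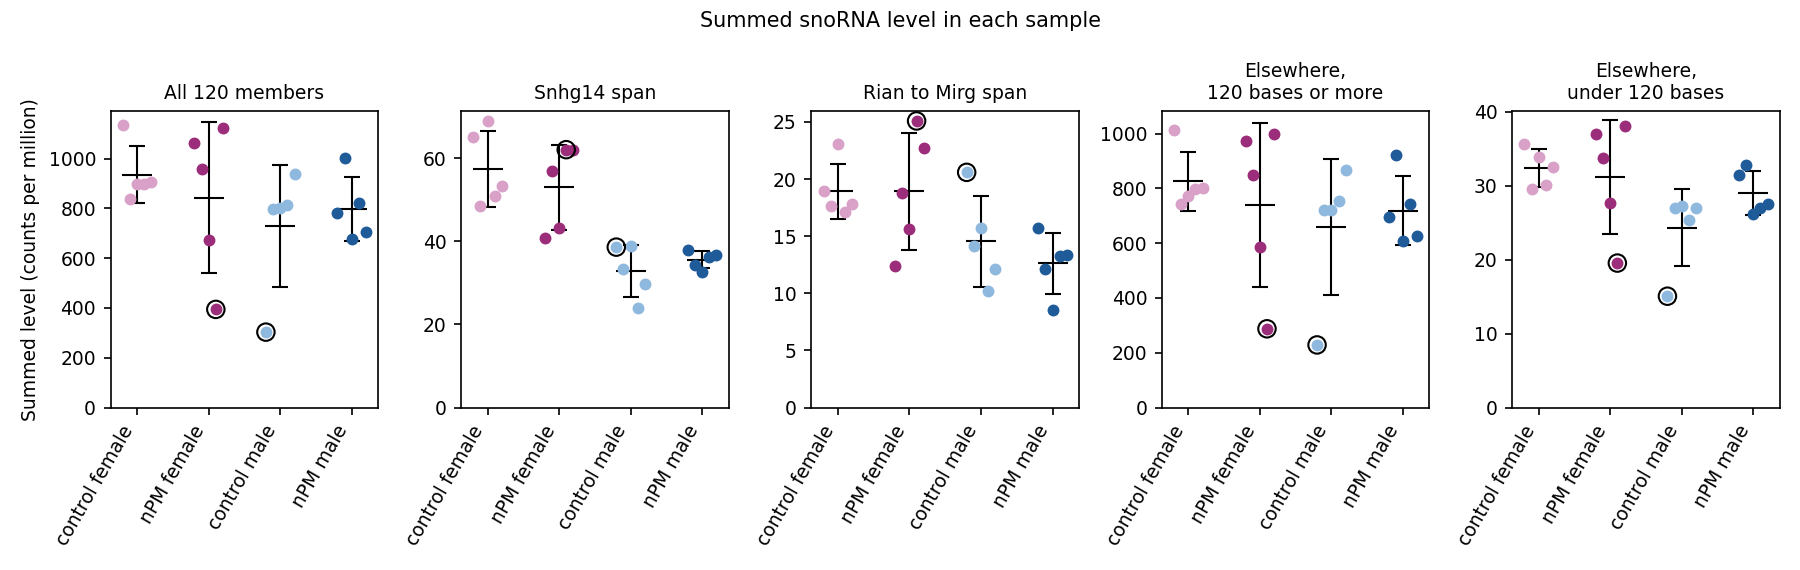
Summed level in CPM of all 120 members and of each set by position, with 1 point per sample, grouped by sex and exposure. Horizontal bars are means and error bars are SD (n = 5), and circles mark control male 1 and nPM female 4. The Snhg14 sums of the males (24.1 to 38.8 CPM) lie below those of the females (40.9 to 69.0 CPM), and nPM and control overlap in each panel within each sex. Some Snhg14 members met the level rule through the females, so the gap between the sexes describes the members and is not support for a difference. Of single genes tested, 3.53% had all 10 females above all 10 males.

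The samples carried markers of the labelled tissue. All 8 markers of hippocampal neurons, such as Prox1 of the dentate gyrus, were above 0 in every sample, with sums of 2268 to 3229 CPM. Markers of choroid plexus, the tissue that secretes cerebrospinal fluid, ranged from 30.9 to 8438 CPM in sum over 6 genes, all above 0 in every sample, and among them Ttr from 10.3 to 7661 CPM. Blood markers summed to 1.27 to 56.9 CPM over 5 genes, with Alas2 at 0 in some samples, and the 4 oligodendrocyte markers summed to 1631 to 4046 CPM. Snora35, which lies within Htr2c, a gene strongly expressed in choroid plexus, was noticed after its values were seen. It had 0.737 to 3.08 CPM in the 7 samples whose Ttr was above 1000 CPM and 0 to 0.428 CPM in the other 13. Snora35 thus met the level rule of 0.5 CPM only through those 7 samples, and the cut at 1000 CPM was not planned. How many other genes split the samples in this way was not counted. These values are therefore a description, and a link of Snora35 to choroid plexus was not tested.

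Gestational nPM was first compared with control in both sexes, the question being which snoRNAs differed in adults after exposure before birth. No member passed p under 0.005 in limma-voom with sex as a covariate, where 0.141% of the 19797 genes tested did. At p under 0.05 there was 1 member, against 2.10% of genes, and edgeR and DESeq2 called none at either level. The median log2 fold change of the 120 members was 0.01, with 62 above 0 and 58 below, beside −0.01 for all genes tested. The smallest p was that of Gm25499, a 69-base RNA of the Snhg14 span, with a log2 fold change of 0.58 ± 0.26 (SE) (limma-voom, adjusted p = 0.9998). Gm25852, within Frmd4b, had 0.74 ± 0.39 and Gm25870, an array copy, −0.31 ± 0.17, the next in order of p. Gm25499 averaged 0.313 CPM in control males and 0.582 in control females, and 0.505 and 0.660 with nPM. Gm25852 averaged 0.342 and 0.630 CPM in control and 0.602 and 0.788 with nPM. Both met the level rule of 0.5 CPM in part through the nPM samples, so their fold changes describe the members and are not support for an effect. The most abundant members did not pass either, and Snora73b had means of 175 ± 36.1 CPM in control and 148 ± 73.3 in nPM females, and of 140 ± 60.2 in control and 151 ± 22.6 in nPM males (SD, n = 5).

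Within males, no member passed p under 0.005 (0.207% of genes), and 7 had p under 0.05, 6 of them higher and 1 lower with nPM (4.28% of genes). At p under 0.05 edgeR and DESeq2 each had 2. The median log2 fold change was 0.15, with 80 of 120 above 0. Without control male 1 it was −0.04. The smallest p was that of Gm24339 of the Cep295 span. It had 5.67, 11.1, 10.3, 8.61 and 8.26 CPM in control males and 15.1, 11.8, 9.96, 10.8 and 10.8 in nPM males. The groups overlapped, and the log2 fold change was 0.40 ± 0.16 (SE; limma-voom, adjusted p = 0.963). Gm25499 followed with 0.85 ± 0.35 and Gm24494, within the Rab geranylgeranyl transferase gene Rabggtb, with 0.64 ± 0.28. Gm25499 averaged 0.313 CPM in control males, under the level rule, and 0.505 CPM in nPM males. Control male 1, low in summed snoRNA, had the lowest Gm24339 level and the highest Gm24494 level of the control males, at 5.67 and 0.892 CPM.

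Within females, no member passed p under 0.005 either (0.0859% of genes), and 1 had p under 0.05 (2.00% of genes). edgeR and DESeq2 each called 1 member at p under 0.005, the array copy Gm24220, and had 3 and 2 at p under 0.05. Gm24220 had 1.55, 0.686, 1.92, 1.16 and 1.48 CPM in control females and 0.479, 0.801, 0.697, 0.733 and 0.697 CPM in nPM females. Control female 2 lay within the nPM range and the other controls above it. Its log2 fold change was −0.93 ± 0.30 (SE; limma-voom, adjusted p = 1). Its sequence is shared with 1 other copy. Gm24233, within Mia2, had −0.48 ± 0.23 and Gm25854, of the Rian to Mirg span, −0.60 ± 0.28. Gm25854 averaged 0.801 CPM in control and 0.507 in nPM females, and 0.355 and 0.374 in males. It met the level rule mainly through the control females, so its fold change describes a member near the edge. The median of the 120 members was −0.12, with 88 below 0. Without nPM female 4 it was −0.03.

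The difference of the nPM effects between the sexes was then tested as an interaction. No member passed p under 0.005 (0.217% of genes), and 6 had p under 0.05 (3.79% of genes), 4 each in edgeR and DESeq2. The median of the interaction was 0.30, with 90 of 120 members above 0, beside 0.01 for all genes tested. Without control male 1 and nPM female 4 the median was −0.01, and in the long members outside the arrays it went from 0.36 to −0.14. The 3 smallest p were those of array copies. Gm26488 had 1.62, 1.60, 2.27, 1.75 and 1.30 CPM in control females and 1.09, 1.60, 1.18, 1.52 and 1.32 in nPM females. In control males it had 0.928, 0.672, 0.780, 0.543 and 0.352 CPM and in nPM males 0.990, 0.930, 0.626, 1.28 and 1.22. Exposed and control samples overlapped in both sexes, and the log2 fold change in males exceeded that in females by 1.01 ± 0.35 (SE; limma-voom, adjusted p = 0.988). It was the 1 member that passed the threshold without the 2 low libraries, where the interaction was 1.21. Gm23449 had 0.82 ± 0.32 and Gm25523 1.03 ± 0.42. Gm26488 shares its sequence with 1 other copy, Gm23449 with 3 and Gm25523 with the 33-copy set, so reads of these copies may not be separable.

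Single members named here were also compared within each sex by a two-sided exact permutation test of mean log2 CPM. With 5 against 5 samples the smallest possible p is 0.00794, so no member could pass p under 0.005 in this test. Many of these members were named for a small p in fits of the same samples, so the test is no separate check. Over 48 tests the lowest exact p were 0.0238, for Gm23449 and Gm25523 in males, and the lowest Benjamini-Hochberg adjusted value was 0.305. In all 48 comparisons the nPM and control samples overlapped.

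**Figure D5:**
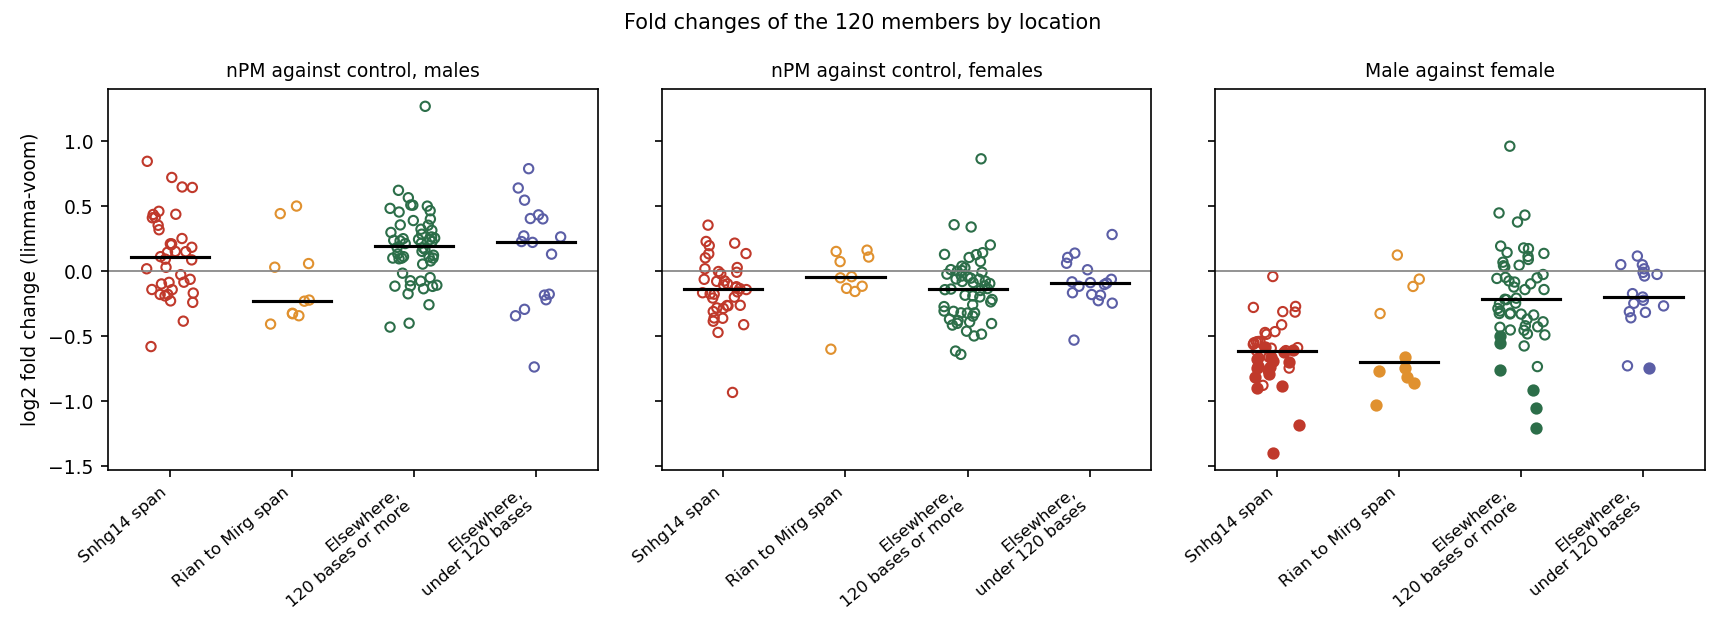
Log2 fold changes of the 120 members from limma-voom by position: nPM against control in males (left), in females (middle), and male against female (right). Each point is 1 member, filled where p was under 0.005, and black bars are medians. No point is filled in the exposure panels, and 30 are filled in the sex panel, all below 0.

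Levels by sex differed for more members, among them 17 of 39 in the Snhg14 span and 6 of 10 in the Rian to Mirg span, all lower in males. With exposure as a covariate, 30 members passed p under 0.005, all lower in males, 25% of the 120. This stands against a transcriptome in which 31.1% of genes passed, 17.1% lower and 13.9% higher in males. At p under 0.05 there were 57 members (48.4% of genes), and 41 were lower in males at an adjusted p under 0.05 (21.6% of genes). The member median was −0.35, with 100 of 120 below 0, beside 0.02 for all genes. The level rule took the mean over both sexes. Every member had a female mean above 0.5 CPM, and some had a male mean below it, most of them in the Snhg14 span. Examples in that span are Gm24495 (0.790 CPM in females and 0.360 in males), Gm23449 (0.683 and 0.378) and Gm25523 (0.769 and 0.454). Elsewhere, Gm25854 (0.654 and 0.365) and Gm22532 (1.005 and 0.394) are examples. Such members entered through the sex where they are high, so the counts by sex describe the members and are not support for a sex difference. Within the Snhg14 span all 39 were below 0, with a median of −0.61. In the Rian to Mirg span 9 of 10 were below 0, with a median of −0.70, and DQ267102 had 2.16 CPM in females and 2.21 in males. Of the 54 long members elsewhere 6 passed, with a median of −0.22, and of the 17 short ones 1 passed, with −0.20. Without the 2 low libraries 31 members passed, 17 in the Snhg14 span and 6 in the Rian to Mirg span. Within control samples alone 17 passed, all lower in males (12.1% of genes tested were called lower and 19.4% in either direction), and within nPM samples alone 4, also all lower (7.16% and 11.3% of genes). In these fits the Snhg14 medians were −0.72 and −0.44.

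Gm22373, the 89-base RNA of the Snhg14 span, had the smallest p. Control females had 1.35, 1.11, 2.56, 1.33 and 1.61 CPM, and nPM females 1.37, 1.89, 0.940, 1.52 and 1.43. Control males had 0.749, 0.318, 0.674, 0.517 and 0.542 CPM, and nPM males 0.615, 0.385, 0.853, 0.300 and 0.579. Every female lay above every male. The log2 difference, male minus female, was −1.40 ± 0.21 (SE), with an adjusted p of 3.92e-05 (limma-voom). Gm24027 was the other member with all 10 females above all 10 males, which held for 3.53% of genes tested.

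Gm24966, the array copy with the highest level, had 10.1 ± 0.884 CPM in control females and 9.79 ± 2.70 in nPM females, and 5.45 ± 1.32 in control males and 6.20 ± 0.913 in nPM males (SD, n = 5). Over sexes it ran from 6.26 to 13.1 CPM in females, with a median of 10.6, and from 3.36 to 6.90 CPM in males, with a median of 5.95. The male-minus-female log2 difference was −0.73 ± 0.14, with an adjusted p of 0.000347 (limma-voom). Gm24969, another copy, followed with −0.90 ± 0.18 and an adjusted p of 0.000441. The sum over the 34 member copies was 36.2 to 59.7 CPM in females and 21.1 to 35.3 CPM in males, and the sum over all 130 copies 51.3 to 79.9 and 30.5 to 49.4 CPM. Some of the 34 met the level rule through the females, whereas the 130 were not chosen by level.

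Snord116l12, the only member with a symbol of the Snord116 family, had 0.513 to 1.76 CPM in females (median 0.996) and 0.250 to 0.750 CPM in males (median 0.618). Its log2 difference was −0.69 ± 0.21, with an adjusted p of 0.0128 (limma-voom). No member had a symbol of Snord115, Snord64, Snord113 or Snord114.

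In the Rian to Mirg span, Gm25856, Gm25224, Gm24564, Gm25854, Gm23787 and Gm22205 were lower in males, with log2 differences of −0.66 to −1.03. Of these, Gm25854 met the level rule through females, with means of 0.654 CPM in females and 0.365 CPM in males. Gm24564 had 0.752 to 2.88 CPM in females and 0.341 to 0.963 in males. The most abundant RNA of this span, Gm23600, had 3.66 to 9.22 CPM in females and 2.87 to 9.49 in males and did not pass the threshold. Its highest values of either sex were those of nPM female 4 and control male 1.

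The most abundant members overlapped between the sexes. Of the 10 with the highest level, only Gm25291, within Sec24a, passed p under 0.005, with a log2 difference of −0.50 ± 0.14. Snora73b had −0.10 ± 0.27 and Gm25776 0.03 ± 0.20.

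Other classes of RNA were lower in males too, though not each of them. The counts below are at p under 0.005, where 17.1% of all genes tested were lower and 13.9% higher in males. The snoRNA genes under 0.5 CPM summed to 57.0 to 83.9 CPM in females and 37.0 to 49.5 CPM in males. Of 1325 genes of class TEC, transcript models that await experimental testing, 878 were lower in males and 8 higher, with a median of −0.88. Of 161 microRNA genes 62 were lower and 3 higher, and of 106 small nuclear RNA genes 29 were lower and none higher. Of 16 scaRNA genes 4 were lower and none higher, with a median of −0.10, and their sum averaged 759 CPM in females and 773 CPM in males. Rmrp averaged 1139 CPM in females and 1476 CPM in males, and Rpph1 2264 and 3198 CPM. Reads of unspliced host transcript that overlap an intronic snoRNA cannot be told apart from the snoRNA in these counts, and the part of such reads in the sex difference was not tested.

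Host genes were called in both directions between the sexes, and the called snoRNAs in 1. These sets are unlike, since each host was counted once. Of the 30 called snoRNAs, 17 lie in the span of the single host Snhg14 and 6 in the Rian to Mirg span. Their directions are therefore not independent, and how host and snoRNA levels relate was not tested. Of the 57 hosts tested, 23 were higher and 7 lower in males at p under 0.005. Over all genes tested, 13.9% were higher and 17.1% lower, and of 15007 protein-coding genes 2637 were higher and 1740 lower. No host passed in any of the 4 exposure fits, where 0.0859% to 0.217% of all genes did. Snhg14 itself had a male-minus-female log2 difference of −0.19 ± 0.10 (limma-voom, adjusted p = 0.110), and Rian −0.09 ± 0.07 (adjusted p = 0.347). Meg3, the noncoding RNA of the same imprinted region as Rian, was lower in males by −0.89 ± 0.15. Mirg, at the end of the Rian to Mirg span, averaged 74.8 ± 11.6 CPM in females and 53.3 ± 9.24 CPM in males (SD, n = 10 each), given without a fit. Gtf2a1, Snx5, Rpsa, Tomm20 and Trmt10c were higher in males by 0.26 to 0.40, and Sec24a, the host of Gm25291, was lower, −0.33 ± 0.06. Over the list of 20 noncoding hosts, 18 were tested: 6 were higher in males (Gas5, Snhg3, Snhg6, Snhg8, Snhg12 and Snhg20) and 3 lower (Snhg11, Snhg17 and Meg3), with no call in the exposure fits.

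The proteins that bind and assemble snoRNAs made no call with exposure. Of 27 genes tested, none passed p under 0.005 in any exposure fit (0.0859% to 0.217% of all genes), with medians from −0.01 to 0.04. By sex, 6 were higher in males, 3 of them core proteins, and 0 lower. This stands beside 13.9% of all genes higher and 17.1% lower in males, and 2637 of 15007 protein-coding genes higher. Snu13, which binds the C/D box fold, was higher by 0.36 ± 0.06, and Nhp2 and Nop10, core proteins of H/ACA particles, by 0.45 ± 0.08 and 0.44 ± 0.09. Znhit3 and Pih1d1, assembly factors, and Coil, the marker protein of Cajal bodies, were higher by 0.30, 0.37 and 0.24. The methyltransferase fibrillarin, Fbl, had −0.03 ± 0.07, Nop56 0.12 ± 0.06 and Nop58 0.17 ± 0.07. Dkc1, the pseudouridine synthase, had 0.09 ± 0.05 and Gar1 −0.10 ± 0.10, and these 5 did not pass.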

How the data were processed

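RNA-seq counts of the 20 hippocampus samples were used as deposited. The authors depleted ribosomal RNA (RiboZero Gold), sequenced on a Illumina HiSeq, trimmed with Trimmomatic where needed, aligned to mm10 with HISAT2 and made whole-number counts per gene of Gencode M11 with featureCounts 1.5.0-p3. The strand setting and the rule for reads with several alignments are not given in the sources used here. The deposited gene map also holds a mean RPKM per gene made by the authors, which was used in no test. The total count was 19092067 to 38663408 per sample, so members with few counts have wide errors.

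CPM was computed over all counted genes. For the fits, genes were filtered with filterByExpr over the 4 groups, which left 19797, and scaled with TMM (edgeR 4.0.16). limma-voom (limma 3.58.1, R 4.3.3) was run for nPM with sex as a covariate, in each sex, for the interaction, and for sex. A call was a two-sided p under 0.005, the study's threshold, and p-values were adjusted by Benjamini-Hochberg over all genes tested. The fits were tested on simulated data in which 200 genes with a mean count over 50 were changed 2-fold. That test does not show what the fits would detect in the 75 members with a median under 50 counts. Single members were compared by exact permutation tests on log2 CPM with 0.5 added to each count. Sequences came from GENCODE M21 on the same build, and identities from global alignments (Biopython 1.88).

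Alternatives were the edgeR quasi-likelihood test, DESeq2 1.42.0, RLE factors, scaling by protein-coding genes, no filter, sample weights, age, a replicate block, 1 fit of 4 groups, and each sample left out. Fits without control male 1 and nPM female 4, and within 1 exposure, were chosen after seeing the data. The members and lists were chosen with earlier results of these data known. Members named are the 10 with the highest mean CPM, the 3 with the smallest p in each fit, the 3 nearest genes on each side of the level rule and those with symbols of imprinted families, with their hosts, and proteins of the lists that are core or passed. Members named as sequences, relatives or sex differences beyond these, and Snora35, were chosen after their values were seen.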

Additional observations from a re-analysis of the deposited data

Results flagged for a closer look

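There were 29 quantities (the summed levels and the named members) in 4 groups of 5, 116 groups in all. Of these groups, 13 held a sample that stood apart by its gap to the nearest other sample. Chance flags about 1 in 20, but the quantities are not independent, since the sums contain the named members. Some members were also named for their p in these data, so the 13 cannot be set against that share. Control male 1 was low in 6 of the 13, which share members. It had 303 CPM summed over all members (other control males 797 to 937), 229 CPM over the long members outside the arrays (720 to 868) and 15.1 CPM over the short ones (25.4 to 27.3). It had 42.1 CPM of Gm25776 (104 to 120), 13.3 of Snord17 (56.7 to 71.1) and 13.1 of Gm24336 (40.9 to 49.4). It was high in Gm24494, with 0.892 CPM against 0.389 to 0.497. nPM female 4 was low in the same sums without standing apart by this measure, since another nPM female, with 674 CPM in all, lay nearest to it.

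Control female 1 was high in 4 quantities. It had 1133 CPM over all members (other control females 838 to 905), 1013 CPM over the long members (743 to 801), 141 CPM of Gm25776 (95.5 to 107) and 1.21 CPM of Gm23449 (0.592 to 0.763). Control male 3 was high in Gm25499 with 0.709 CPM (0.162 to 0.250), and control female 5 in Gm25852 with 0.986 CPM (0.505 to 0.610).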

How the results depend on the processing

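No member was called for nPM with both sexes under any of 9 other settings or with any of the 20 samples left out. In males the count stayed at 0 under 8 other settings and ran from 0 to 1 with a sample left out, the call being Gm25499 without control male 3. In females it was 1 with edgeR, 1 with DESeq2, and 0 to 1 with a sample left out (Gm24220 without control female 2). For the interaction it was 0 to 1 with a sample left out (Gm26488 without control male 1 or nPM male 3), and 1 without both low libraries. For male against female, 26 to 35 members were called under the settings that kept all samples and 21 to 33 with a sample left out, all lower in males. Control samples alone gave 17 and nPM samples alone 4, with fewer samples and with 19.4% and 11.3% of all genes tested called. Of the 30 members called, 29 were also called by edgeR and 29 by DESeq2. Of 369 repeats for single named members none changed direction, and 9 crossed the threshold. These members were named for a small p in the same samples, so an unchanged direction is no separate check. A mean of 1 CPM in place of 0.5 left 67 members, and a median of 0.5 CPM 118. Scaling without ribosomal RNA raised the mean summed level of every group by less than its SD, and the order of the groups stayed. Control females went from 935 to 1041 CPM, nPM females from 843 to 951, control males from 730 to 827.5 and nPM males from 796 to 894. This is no test of differences between groups.

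Same-numbered samples did not deviate together: r ran from −0.44 to 0.30 over 30 pairs, 10 of them over 0.1, and 6 of 20 samples correlated best with their own number. With the replicate block, 0 members were called in the 4 exposure fits and 26 by sex. Counts per member limit precision: 75 members had a median under 50 counts.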
